A study of Homo sapiens with 6 samples.

Results

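The genes described here are 10 rows of a table of RNA-seq read counts, the ferritin chains FTH1 and FTL, 7 antioxidant genes known as targets of the transcription factor NRF2, and BEST1, which lies on the strand opposite FTH1. They were taken by gene symbol, and all 10 were found among the 23384 gene identifiers of the table. The RNA came from CAL27, a long-established line of human oral squamous cell carcinoma, grown in DMEM with serum. The 3 control libraries came from cells labelled wild type and given an empty vector, and the 3 other libraries from cells that received a plasmid for TNFAIP2, a gene induced by tumour necrosis factor. The sample labels speak of transfection and the series text of infection. The labels give no time after transfection. They do not name separate cultures within a group, so each p-value reflects only how much these libraries vary, which may be technical. Values are given in the order of replicates 1 to 3, controls first and overexpression-labelled libraries second.

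Ferritin is a hollow protein shell that stores iron. Its heavy chain, from FTH1, oxidises iron so that it can be stored, and its light chain, from FTL, helps to form the mineral core. Both mRNAs carry an iron-responsive element, a hairpin near the start of the transcript to which iron regulatory proteins bind when iron is scarce, which holds back translation. NRF2, encoded by NFE2L2, is held at low level by KEAP1 and, when released by oxidants or electrophiles, binds antioxidant response elements of genes for glutathione synthesis, thioredoxin recycling and quinone detoxification, and of both ferritin genes. In squamous carcinomas this pathway is known for resistance to oxidative stress.

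FTH1 shares most of its transcript with a gene on the other strand. FTH1 (ENSG00000167996, chromosome 11, 61959718 to 61967634, minus strand, GRCh38 coordinates of the deposited table) overlaps BEST1 (ENSG00000167995, chromosome 11, 61950063 to 61965515, plus strand), which encodes bestrophin 1, a chloride channel known from the retinal pigment epithelium. In GENCODE release 29, the principal FTH1 transcript has 4 exons and 1229 bases. The last exon of the BEST1 transcript that overlaps it most, 3261 bases long, covers exons 2, 3 and 4 of FTH1 entirely on the other strand and ends with the same base at which exon 2 begins. Of the FTH1 transcript, 880 bases (71.6%) lie opposite BEST1, and of its 552 coding bases 438 (79.3%). Exon 2, all 147 bases of it coding, lies at chr11:61965369-61965515 (minus strand), and exon 1, with 114 coding bases, has none opposite BEST1.

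**Figure D1:**
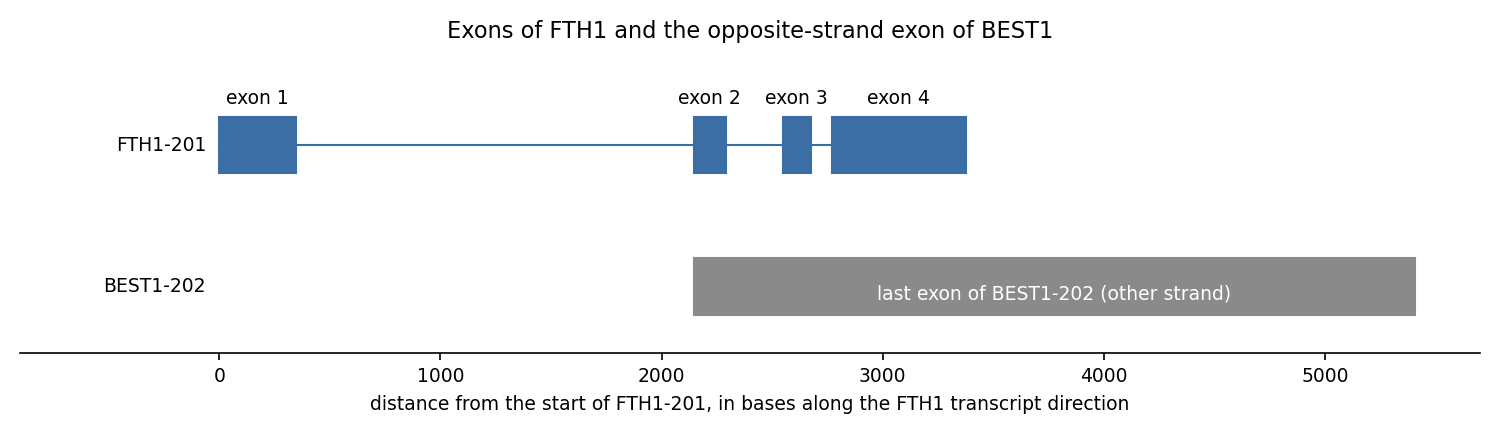
Exons of the principal FTH1 transcript (blue) and the last exon of BEST1 on the other strand (grey), drawn to scale by distance in bases from the start of FTH1. Exons 2, 3 and 4 lie opposite the BEST1 exon and exon 1 lies outside it.

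Regulatory sequences are shown for the members in which a known motif was found, as background to the names of the groups. RefSeq start-site windows (GRCh38.p14, 250 bases before to 50 after the start) matched 6 of the 10 members, FTL, NQO1, GCLM, GCLC, TXNRD1 and SRXN1, and not FTH1, BEST1, SLC7A11 or HMOX1. An antioxidant response element core, searched as TGACNNNGC on both strands, was in 3 of these 7 windows (TXNRD1 has a pair of starts) and in 13.3% of all 35116 windows. It lay 34 bases before the start of GCLM and 102 bases before the downstream start of TXNRD1, counted from its first base, on the strand opposite the gene in both. The loop of the iron-responsive element, searched as a C, 5 bases of any kind and CAGTGN on the transcribed strand, was in the FTL window and in 10.1% of all windows. Sequences are read on the gene's strand. Capitals mark the searched core of the response element, as its reverse complement, in GCLM and TXNRD1. In FTL they mark only the last 6 bases of the motif, which hold the loop. The stretches are chr1:93909431-93909550 (minus strand) for GCLM, chr12:104286912-104287031 (plus strand) for TXNRD1 and chr19:48965337-48965357 (plus strand) for FTL.
GCLM, 120 bases before its start: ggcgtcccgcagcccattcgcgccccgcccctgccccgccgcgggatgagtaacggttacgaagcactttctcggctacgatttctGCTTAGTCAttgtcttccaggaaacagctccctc
TXNRD1, 120 bases before its downstream start: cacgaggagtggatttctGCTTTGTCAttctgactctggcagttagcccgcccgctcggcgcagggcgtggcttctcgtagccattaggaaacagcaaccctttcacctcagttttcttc
FTL, iron-responsive element: cttgcttcaaCAGTGTttgga

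Total counts ran from 3092261 to 3527161 per library. Counts under the name TNFAIP2 were not higher in the libraries labelled overexpression, with 194, 112 and 162 control counts against 194, 152 and 142 (log2 fold change -0.21, SE 0.28, edgeR adjusted p = 0.881), so the groups are named only as labelled. All 14 epithelial and squamous markers in the table were tested, with KRT5 highest at 516 to 668 CPM (counts per 1000000, with libraries scaled by the TMM method). The 4 fibroblast markers in the table summed to 2.04 to 8.52 CPM per library and the 7 leukocyte markers to 6.49 to 10.9 CPM. The table as a whole holds many reads on features opposite other genes. Over 365 pairs of a protein-coding gene and a feature contained in it on the other strand, members left out, the median ratio of the gene's own count to that of the feature (the own-strand ratio) was 0.104, 0.0996 and 0.181 in controls against 0.198, 0.135 and 0.195. Pairs needed at least 60 counts on the feature in all, with no floor on the gene's count, which lowers this ratio. The kit keeps strand, but how strand was treated in counting is not given, and whether reads were assigned to the strand opposite their transcripts was not tested. If they were, the BEST1 row would hold mostly FTH1 reads, and rows under a gene's own name, FTH1 and TNFAIP2 included, would not measure its mRNA. All values below are therefore those of the named rows. Control replicate 3 stood with the overexpression-labelled libraries on this measure, and the difference between groups did not pass a two-sided exact permutation test (p = 0.2, smallest possible 0.1).

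No member differed between the groups at the threshold. With edgeR's quasi-likelihood test, 0.0% of 11851 genes passed a Benjamini-Hochberg adjusted p of 0.05, and 0 of the 9 members tested did. HMOX1 did not pass the filter on low counts. At an unadjusted p below 0.05, 1 of the 9 members was higher, NQO1, beside 1.83% of all genes tested, and 0 were lower, beside 3.06%. Log2 fold changes (overexpression-labelled minus control) were positive for 7 of the 9, with a median of 0.21, where 51.9% of all tested genes were positive with a median of 0.024.

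The row named FTH1, the ferritin heavy chain, had the second highest count of the members, and its difference did not pass the test. It had 5052, 3613 and 3877 control counts against 5577, 4540 and 6338. Scaled, this was 1826, 1166 and 1143 CPM against 1458, 1323 and 1687 CPM. The groups overlapped, since control replicate 1 was the highest of all. In such bulk libraries fewer cells with a transcript and less RNA per cell cannot be told apart. Means were 1378 ± 388 and 1489 ± 184 CPM (SD, n = 3; log2 fold change 0.11 with SE 0.20, edgeR adjusted p = 0.907), and the sign turned without control replicate 3, at -0.01.

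The row named BEST1, which may hold FTH1 reads, had the highest mean count of the whole table, 157570, which was 4.65% of all counts. It had 147237, 187158 and 150499 control counts against 147948, 161653 and 150925. In CPM these were 53229, 60377 and 44373 against 38670, 47099 and 40171. Controls 1 and 2 were the highest and the groups overlapped through control replicate 3. Means were 52659.7 ± 8018 and 41980.0 ± 4496 CPM (log2 fold change -0.33 with SE 0.18, edgeR adjusted p = 0.830). Of 8 other genes listed for the retinal pigment epithelium, 5 were in the table, not all of which are described here. Those described were uneven under their own names. RPE65, the visual cycle isomerase, had 374 to 528 counts per library and the melanosome gene PMEL 499 to 642. The pigment cell regulator MITF had 0 to 4 and TYRP1 0 to 1. PMEL shares 89 exonic bases with CDK2 on the other strand, a gene with 71.8 counts per library on average. Whether CDK2 reads were counted under PMEL was not tested.

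BEST1 held 32.6 times as many counts as FTH1 on average. Per kilobase of exons, BEST1 had 5299 CPM and FTH1 706 CPM (means of the 6 libraries). FTH1 took 3.32, 1.89 and 2.51% of the summed FTH1 and BEST1 counts in controls against 3.63, 2.73 and 4.03%. The groups overlapped, because control replicate 1 lay above overexpression-labelled replicate 2. The mean share was 2.57 ± 0.714% in controls against 3.46 ± 0.665% (SD, n = 3). On the log2 scale the ratio of FTH1 to BEST1 was -5.28 ± 0.41 and -4.82 ± 0.30, a difference of 0.46 that did not pass a two-sided exact permutation test (p = 0.2, where 0.1 is the smallest 3 against 3 libraries can give). With both genes summed, the locus had 54044.5 ± 8066 CPM in controls against 43464 ± 4380 CPM (log2 fold change -0.31 with SE 0.18, edgeR adjusted p = 0.830). The sum followed BEST1, and reads in the shared exons cannot be divided between an FTH1 and a BEST1 transcript from these counts.

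FTL, the ferritin light chain (ENSG00000087086, chromosome 19, 48965309 to 48966879, plus strand), had no deposited feature opposite its exons. It had 333, 329 and 365 control counts against 553, 387 and 485, or 120, 106 and 108 against 145, 113 and 129 CPM. The ranges met only at control replicate 1, which was above overexpression-labelled replicate 2. Means were 111 ± 7.83 and 129 ± 15.9 CPM (SD, n = 3; log2 fold change 0.21 with SE 0.21, edgeR adjusted p = 0.853). Per kilobase of exons FTL had 137 CPM, below FTH1 in each library. Processed ferritin pseudogenes, copies near identical to these mRNAs, held few counts. The 12 such rows (9 of FTH1 and 3 of FTL) had 44 counts over all libraries, 2 to 11 per library. The highest were FTH1P1 with 14 counts over the 6 libraries, FTH1P2 with 7 and FTH1P8 with 5. Reads that match both a pseudogene and its parent gene cannot be divided between them from these counts.

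**Figure D2:**
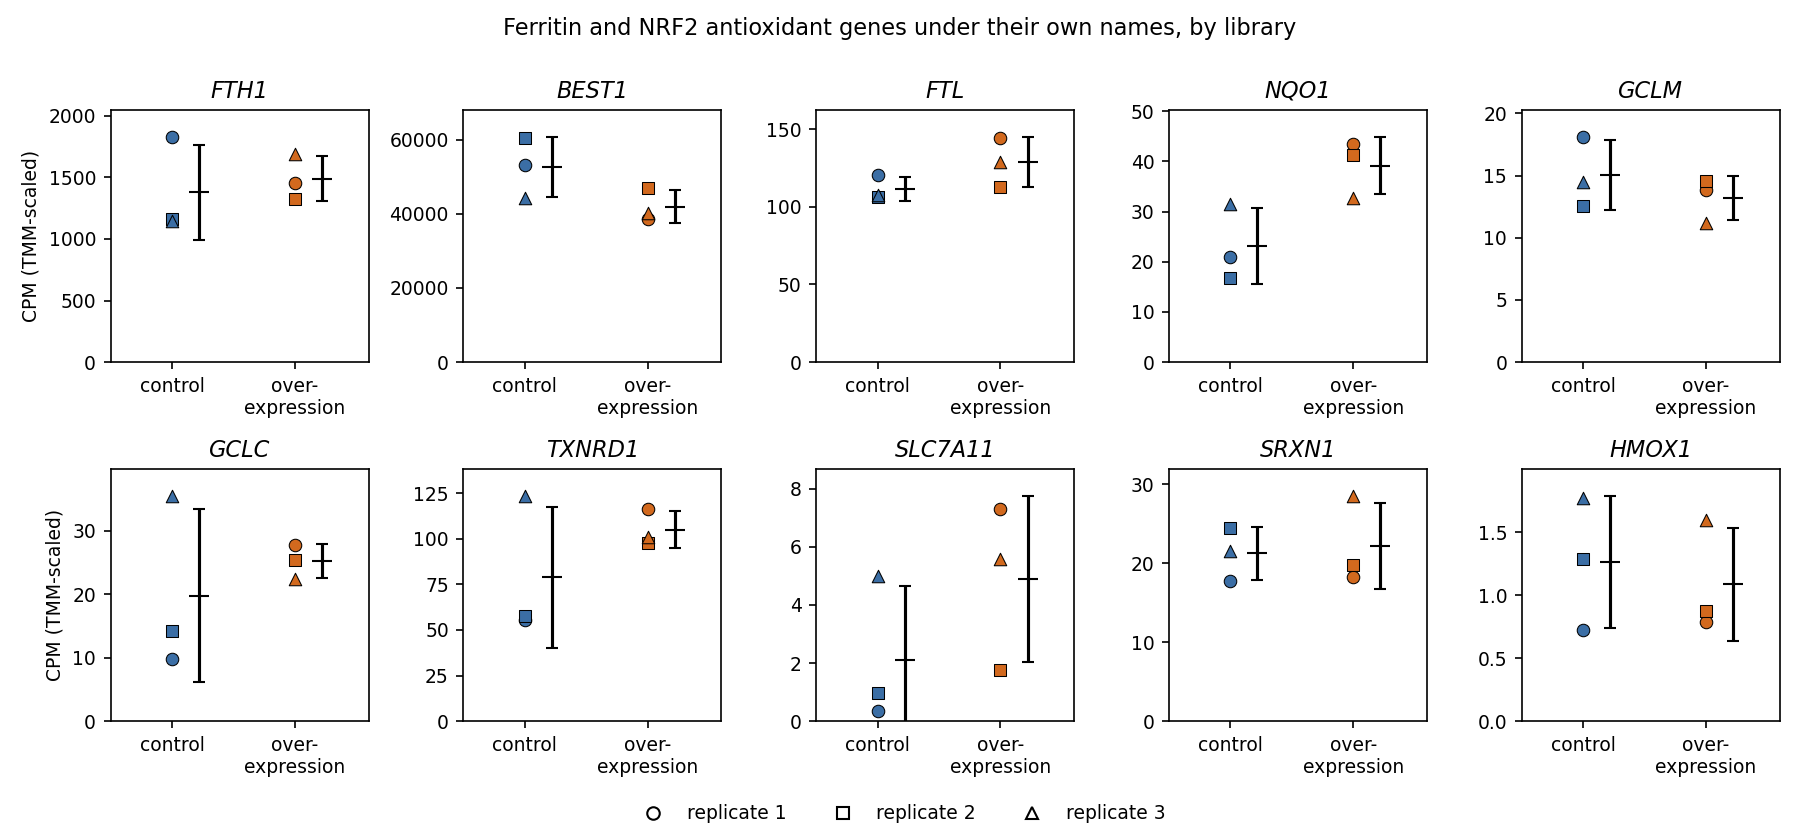
Each panel plots 1 member in TMM-scaled CPM from 0, with controls in blue and overexpression-labelled libraries in orange, a symbol for each replicate number, and the group mean with its SD beside the points (the lower bar of SLC7A11 controls ends at the axis). Groups overlap in every panel except NQO1, and control replicate 3 is the highest library for GCLC and TXNRD1.

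NQO1, the quinone reductase that is a standard readout of NRF2, was the only member whose groups did not overlap. NQO1 (ENSG00000181019, chromosome 16, 69706996 to 69726668, minus strand) had 58, 52 and 107 control counts against 166, 142 and 123. In CPM these were 21.0, 16.8 and 31.5 against 43.4, 41.4 and 32.7, so control replicate 3 came just below overexpression-labelled replicate 3. Among all genes tested, 5.54% had groups that did not overlap with the overexpression-labelled libraries higher, and 1 of the 9 tested members did. Means were 23.1 ± 7.61 and 39.2 ± 5.66 CPM (SD, n = 3; log2 fold change 0.76 with SE 0.31, edgeR unadjusted p = 0.0216, adjusted p = 0.830).

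The feature opposite NQO1 lay the other way. ENSG00000261602, a lncRNA (chromosome 16, 69709874 to 69710583, plus strand), has all of its 575 exonic bases opposite an NQO1 exon and none opposite NQO1 coding sequence. It had 901, 955 and 1009 control counts against 839, 956 and 791, which is 8.41 times the NQO1 count on average. In TMM-scaled CPM this was 310.4 ± 14.3 in controls against 236 ± 37.0, without overlap (log2 fold change -0.39 with SE 0.19, edgeR adjusted p = 0.830). The unscaled counts did overlap, so this separation depended on the scaling. Groups that did not overlap with the overexpression-labelled libraries lower made up 4.92% of all genes tested. NQO1 thus took 6.05, 5.16 and 9.59% of the summed counts in controls against 16.5, 12.9 and 13.5%. Of the 3 member loci with at least 50 bases of opposite exons, this was the 1 whose shares did not overlap, beside 9.41% of 3431 protein-coding genes read with such a feature. The sum of both strands was 334 ± 11.6 and 275 ± 39.9 CPM (log2 fold change -0.28 with SE 0.19, edgeR adjusted p = 0.830), so the sign of the NQO1 value depended on whether the other strand was counted. NQO1-DT, a lncRNA that starts beyond the NQO1 promoter and has no exon opposite NQO1 in release 29, had 710 ± 187 and 531 ± 48.0 CPM (log2 fold change -0.42, SE 0.21, edgeR adjusted p = 0.830).

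**Figure D3:**
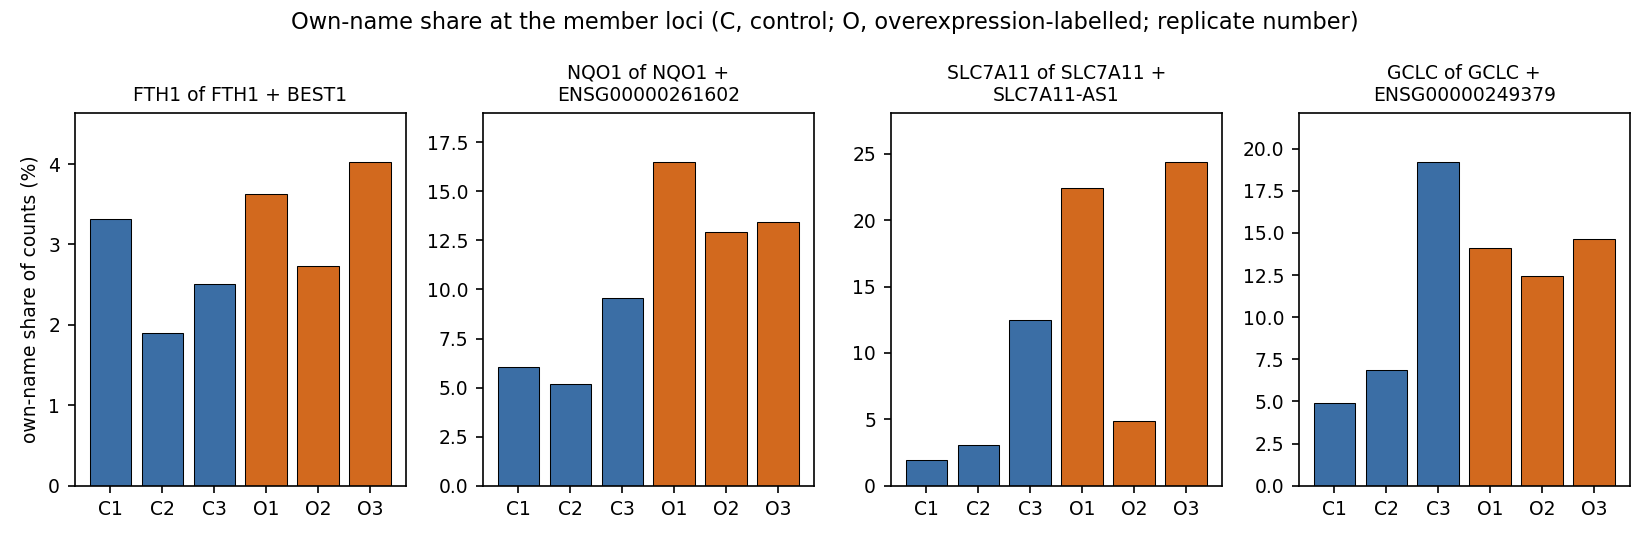
Bars give, per library, the percentage of the summed counts of a member and its opposite feature that carries the member's own name, with controls in blue (C) and overexpression-labelled libraries in orange (O) and a separate axis from 0 in each panel. The NQO1 bars do not overlap between groups (up to 9.59% against 12.9% or more), and control replicate 3 is the highest control at NQO1, SLC7A11 and GCLC but not at FTH1.

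SLC7A11 encodes the cystine importer xCT, GCLC the catalytic and GCLM the modifier subunit of glutamate-cysteine ligase, the rate-limiting enzyme of glutathione synthesis. SLC7A11 (ENSG00000151012, chromosome 4, 138164097 to 138242349, minus strand) had 1, 3 and 17 control counts against 28, 6 and 21. Control replicate 3 lay inside the overexpression-labelled range and overexpression-labelled replicate 2 near the other controls. Means were 2.11 ± 2.53 and 4.89 ± 2.85 CPM (SD, n = 3; log2 fold change 1.16 with SE 0.83, edgeR adjusted p = 0.830). Its antisense feature SLC7A11-AS1, with 865 exonic bases opposite it, all beyond the last coding base, had 51, 94 and 119 against 97, 117 and 65 counts. The log2 fold change of that feature was -0.13 (SE 0.33) and that of both strands summed 0.014 (SE 0.32, edgeR adjusted p = 0.993).

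GCLC (ENSG00000001084, chromosome 6, 53497341 to 53616970, minus strand) had 27, 44 and 120 control counts against 106, 87 and 84. Control replicate 3, at 35.4 CPM, was above every other library, and controls 1 and 2, at 9.76 and 14.2 CPM, were below all of them. The group means of 19.8 ± 13.7 and 25.1 ± 2.68 CPM (SD, n = 3) differed by less than that spread (log2 fold change 0.34 with SE 0.40, edgeR adjusted p = 0.867). A lncRNA inside the gene on the other strand, ENSG00000249379, shares only 7 exonic bases with it in release 29 and had 491 to 646 counts per library, with a log2 fold change of -0.15 (SE 0.21).

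GCLM (ENSG00000023909, chromosome 1, 93885199 to 93909456, minus strand) did not share this pattern. It had 50, 39 and 49 control counts against 53, 50 and 42, with overlapping groups. In CPM this was 15.03 ± 2.79 and 13.2 ± 1.79 (SD, n = 3; log2 fold change -0.19 with SE 0.37, edgeR adjusted p = 0.914). The subunits thus had opposite signs, neither beyond its error. Per kilobase of exons both subunits averaged 2.60 CPM, and SLC7A11 averaged 0.363 CPM.

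TXNRD1, the cytosolic thioredoxin reductase, had the same library order as GCLC in its controls. TXNRD1 (ENSG00000198431, chromosome 12, 104215779 to 104350307, plus strand) had 153, 179 and 418 control counts against 445, 335 and 380. Control replicate 3 was again the highest of all, at 123 CPM, while controls 1 and 2 had 55.3 and 57.7 CPM and the overexpression-labelled libraries 97.6 to 116 CPM. Means were 78.8 ± 38.5 and 105 ± 9.94 CPM (SD, n = 3; log2 fold change 0.41 with SE 0.27, edgeR adjusted p = 0.830).

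SRXN1, the sulfiredoxin that repairs overoxidised peroxiredoxins (ENSG00000271303, chromosome 20, 646615 to 653200, minus strand), had 49, 76 and 73 control counts against 70, 68 and 107. Its groups overlapped, at 21.3 ± 3.41 and 22.2 ± 5.49 CPM (SD, n = 3; log2 fold change 0.062 with SE 0.33, edgeR adjusted p = 0.969). Its exons share the strand and the span of another feature, ENSG00000270299, which had 1 to 12 counts per library. HMOX1, the inducible haem oxygenase that frees iron from haem (ENSG00000100292, chromosome 22, 35380361 to 35394214, plus strand), had 2, 4 and 6 control counts against 3, 3 and 6. With so few counts HMOX1 did not pass the filter, and a moderate change in it would not show.

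Ordered by mean CPM per kilobase of exons over the 6 libraries, the members under their own names ran from BEST1 and FTH1 to FTL at 137, TXNRD1 at 13.7, NQO1 at 9.57, SRXN1 at 8.05, GCLM and GCLC at 2.60, HMOX1 at 0.488 and SLC7A11 at 0.363. The ranges of BEST1, FTH1, FTL and TXNRD1 over the libraries did not overlap. From TXNRD1 down, neighbours overlapped over the libraries, except SRXN1 above both ligase subunits and both subunits above HMOX1. Own-name counts may hold different shares of a gene's reads at different genes, as the loci above show, so this order is that of the deposited counts.

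Several member values changed their call without control replicate 3. Its CPM was 7.54 times the mean of control replicates 1 and 2 for SLC7A11, 2.95 times for GCLC and 2.18 times for TXNRD1, a group of 3 genes that reached 2 times, where 16.9% of all tested genes did. For NQO1 it was 1.67 times, and for FTH1 and BEST1 0.764 and 0.781 times. Without this library edgeR called 922 of 12443 genes (7.41%), and 3 of the 9 members were among them. TXNRD1 was higher by 0.89 on the log2 scale (SE 0.23, adjusted p = 0.00986), NQO1 was higher by 1.05 (SE 0.32, adjusted p = 0.0288), and BEST1 fell by 0.44 on the log2 scale (SE 0.14, adjusted p = 0.0316). Calls in these directions were made for 4.13% of genes as higher and 3.28% as lower. Control replicate 3 was the highest control for TXNRD1 and NQO1 and the lowest for BEST1. Leaving it out therefore widens these differences by itself. No member was called when any other library was left out. GCLC, at 1.06 (SE 0.38, adjusted p = 0.0629), and SLC7A11, at 2.79 (SE 1.04, adjusted p = 0.0786), did not pass, the latter resting on 1 and 3 control counts, nor did FTH1, FTL, GCLM or SRXN1. The sum of FTH1 and BEST1 was at -0.43 on the log2 scale (SE 0.14, adjusted p = 0.0354), in a fit that called 7.42% of genes.

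The own-strand ratio moved with these values, and beyond a covariate its part in them was not tested. Control replicates 1 and 2 had the lowest ratios, and control replicate 3 one in the range of the overexpression-labelled libraries. When the ratio was a covariate on all 6 libraries, the log2 fold changes were 0.0057 (SE 0.21) for TXNRD1, -0.10 (SE 0.36) for GCLC, -0.054 (SE 0.89) for SLC7A11, 0.53 (SE 0.31) for NQO1 and -0.10 (SE 0.076) for BEST1, with no member called by edgeR. FTH1 and FTL had 0.20 (SE 0.23) and 0.16 (SE 0.20). Among 3431 protein-coding genes read with an opposite feature of at least 50 shared exonic bases, the features had a median log2 fold change of -0.22 and 26.5% were positive, while the genes under their own names had a median of -0.012 and 49.1% were positive. The features opposite FTH1, NQO1 and SLC7A11 were all negative, which is also the more common sign of such features with TMM scaling. Library totals moved the median of all tested genes from 0.024 to 0.18. The share of positive features was not recounted under them.

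**Figure D4:**
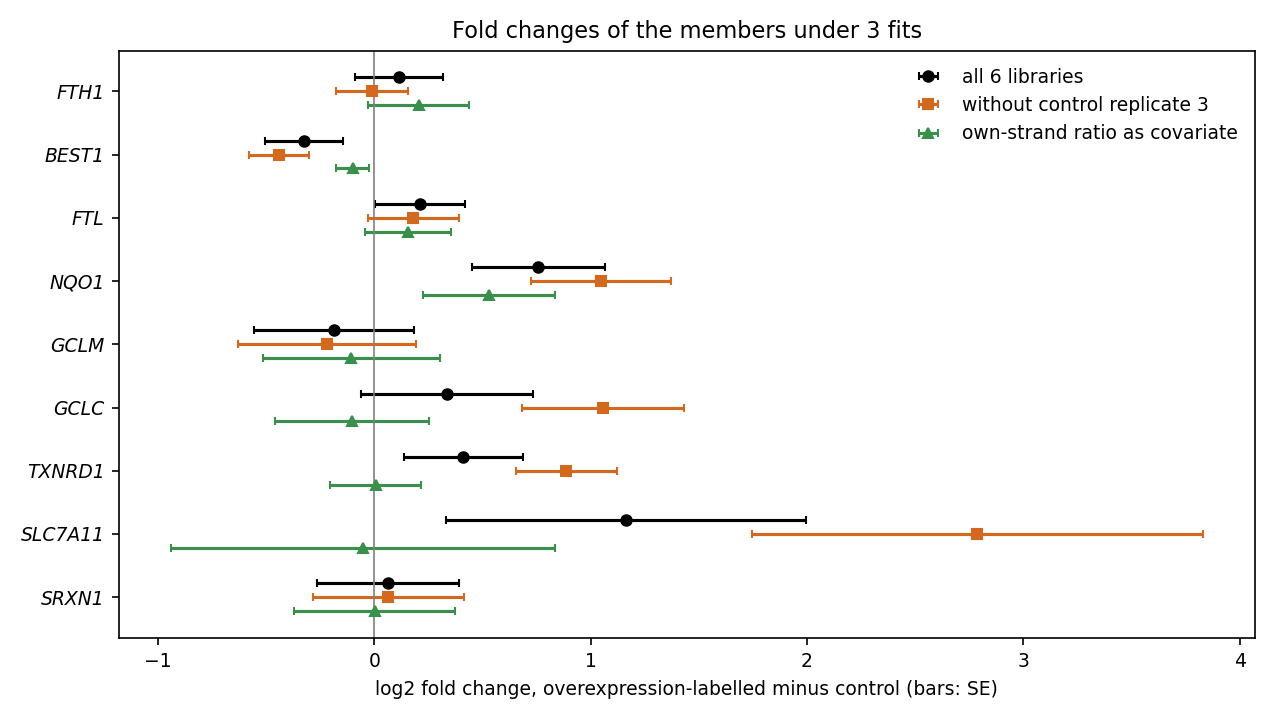
Points give the edgeR log2 fold change of each tested member (overexpression-labelled minus control) and bars its SE, from all 6 libraries (black), without control replicate 3 (orange) and after adding that ratio as a covariate (green). TXNRD1, GCLC and SLC7A11 lie at 0.89, 1.06 and 2.79 without that library and at 0.0057, -0.10 and -0.054 with the covariate, while FTL and SRXN1 move little.

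Regulators of NRF2 did not pass the test. Of 13 tested regulators and partners, 8 had a positive log2 fold change (median 0.076) and 0 passed in either direction. SQSTM1, the autophagy receptor that sequesters KEAP1, had 504, 399 and 436 CPM in controls against 416, 406 and 433 CPM. SYVN1, a ubiquitin ligase gene, had 331.7 to 453 and 277 to 340.0 CPM. MAFK, a small MAF partner of NRF2, had 95.4 to 99.7 and 101 to 117 CPM, without overlap (log2 fold change 0.16, SE 0.21, edgeR adjusted p = 0.881). NFE2L1, a relative of NRF2, had 47.4 to 74.0 and 58.3 to 84.7 CPM. SQSTM1 shares 1582 exonic bases with MRNIP on the other strand, which held 14.3 times its counts.

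Other genes of the antioxidant and iron pathways gave 0 calls in either direction, members left out of each list. Of 22 other NRF2 targets, 15 were positive (median 0.10), with the quinone reductase NQO2 at 59.6 to 101 CPM in controls against 55.9 to 68.2 CPM. Of 16 genes of glutathione synthesis and use, 12 were positive (median 0.14), among them SLC3A2, the partner chain of SLC7A11, at 209 to 427 and 326 to 507 CPM, and the transferase gene GSTP1, at 157 to 172 and 189 to 234 CPM without overlap. Of 18 thioredoxin and peroxiredoxin genes, 13 were positive (median 0.28), with PRDX1, a peroxide-reducing enzyme, at 75.6 to 168 and 117 to 184 CPM. Superoxide dismutase SOD2 went the other way without overlap, at 461 to 519 and 383 to 396 CPM, and shares 298 exonic bases with WTAP on the other strand.

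Of 15 NADPH generating enzymes, 9 were positive (median 0.24). TKT and PGD, both of the pentose phosphate pathway, were taken by abundance and not by their change. TKT had 125 to 149 and 142 to 176 CPM, and PGD 74.8 to 183 and 120 to 183 CPM. Of 21 genes of iron uptake, storage and export, 14 were positive (median 0.099). Groups did not overlap for 5 of the 21 with the overexpression-labelled libraries higher and for 2 lower, beside 5.54% and 4.92% of all genes tested. The 5 were PCBP1, LCN2, SLC39A14, STEAP3 and STEAP1, and the 2 were BMP6 and CP. TFRC, the transferrin receptor whose mRNA is stabilised when iron is scarce, had 56.4, 73.2 and 234 CPM in controls against 231, 107 and 142 CPM (log2 fold change 0.39, SE 0.61, edgeR adjusted p = 0.897). As at TXNRD1, control replicate 3 was the highest of all. The iron chaperone gene PCBP1, opposite PCBP1-AS1 with 40.3 times its counts, had 105 to 108.8 and 109.3 to 132 CPM. The ferroxidase gene CP had 127 to 138 and 83.6 to 108 CPM (log2 fold change -0.49, SE 0.21, edgeR unadjusted p = 0.0290, adjusted p = 0.830). BMP6, a signal for hepcidin, had 197.03 to 257 and 159 to 196.96 CPM, so its groups nearly met. The ferrireductase gene STEAP3 had 5.48 to 9.73 and 14.6 to 14.9 CPM (log2 fold change 0.91, SE 0.41, edgeR unadjusted p = 0.0372, adjusted p = 0.830). STEAP3-AS1, opposite it over 500 exonic bases, held 11.5 times its counts and had a log2 fold change of -0.42 (SE 0.24). CP shares 1418 exonic bases with HPS3 on the other strand, which had 24.2 counts per library on average. LCN2, SLC39A14, STEAP3 and STEAP1 were named after their values were seen. Of 19 ferroptosis regulators, 13 were positive (median 0.12), with the phospholipid enzyme gene LPCAT3 at 149 to 250 and 148 to 165 CPM. These lists share genes with one another, so their counts are not separate.

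Without control replicate 3, edgeR called 10 of 147 tested pathway and marker list genes, or 6.8%, which is near the 7.41% of all genes called in that fit. Of these, 9 were higher, TFRC at 1.29 (SE 0.24, adjusted p = 0.000348), SLC3A2 at 0.69, PRDX1 at 0.68, PGD at 0.73, MTHFD1 at 0.88, MTHFD2 at 1.01, CDH1 at 0.99, and VDAC3 at 1.67 on the log2 scale, and CYP4F11 with 1 and 0 control counts against 17, 10 and 19. LPCAT3 fell by 0.62. Of all genes in that fit, 4.13% were called as higher and 3.28% as lower. MTHFD1, MTHFD2, CDH1, VDAC3 and CYP4F11 were named after their values were seen. The features with most counts opposite PRDX1, MTHFD2, CDH1, MTHFD1 and LPCAT3 held 21.2, 19.5, 7.05, 6.85 and 2.48 times the gene's counts. With all libraries kept, the log2 fold changes of these features were -0.18, -0.31, -0.22, -0.26 and -0.35. Whether reads of these genes were counted under the features was not tested.

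Where the other pathway genes also had a tested feature opposite them, the signs on both strands were counted. Of 38 such genes, 24 (63.2%) were positive under their own names and 4 (10.5%) by their opposite feature, with medians of 0.067 and -0.30. These signs, too, were read with TMM scaling only. None of these features passed the edgeR test at an adjusted p of 0.05, as was so for all features tested. In 27 of the 38 (71.1%) the feature held more counts than the gene, beside 65.0% of the 3431 protein-coding genes above. In both sets the feature with the most counts was read where a gene had several, which raises these shares. NFE2L2 itself, with 40.5 counts per library, lies opposite the lncRNA ENSG00000222043, with 181.5, and their log2 fold changes were 0.087 and -0.06 (SE 0.27 for the lncRNA). Another feature opposite NFE2L2, the protein-coding AGPS, shares 54 exonic bases and had 86.7 counts per library and a log2 fold change of 0.57 (SE 0.39).

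**Figure D5:**
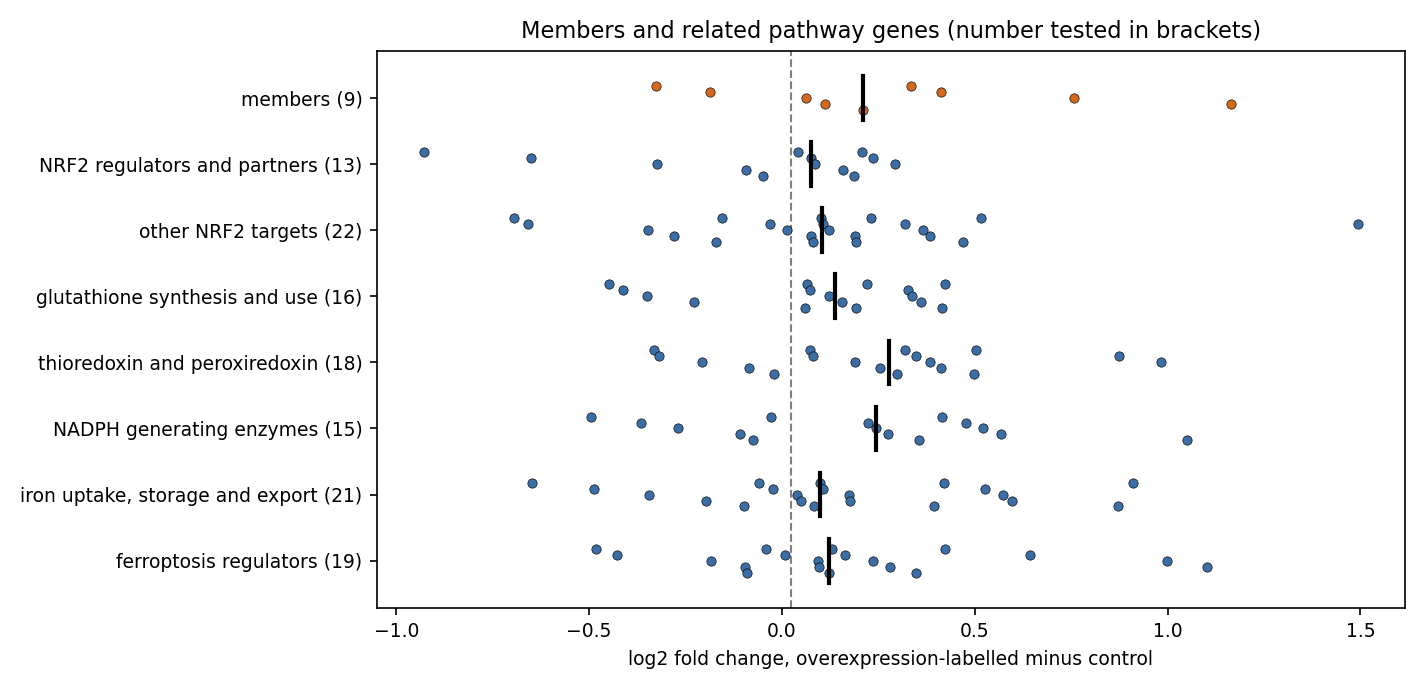
Each point is the log2 fold change of 1 tested gene, for the 9 members (orange) and the lists of related genes (blue, members left out), with the list median as a black bar and the median of all tested genes, 0.024, as a dashed line. List medians lie between 0.076 and 0.28, and the genes of each list spread to both sides of 0.

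The genes nearest in pattern to the ferritin rows were found by the root mean square difference of log2 CPM, centred on the mean of the 6 libraries, among 10024 other tested genes with a symbol. For FTH1 they included FASN and SLC38A10, at 0.031 and 0.041. For BEST1 they were LRRC37A16P, LINC01764 and FARSA-AS1, at 0.016, 0.021 and 0.026. For FTL they were CDV3, PAK6 and ASF1B, at 0.045, 0.052 and 0.053. With 6 libraries and this many genes, close patterns are easily found, and none of the genes named here was a member.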

How the data were processed

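Stranded mRNA libraries of CAL27 cells were sequenced, per the labels' protocols. HISAT2 2.2.0, HTSeq 0.13.5 and Trim Galore 0.6.4, with builds GRCh38 and hg38, stand in the submitters' processing notes. How counting treated strand, and which annotation release was used, is not given in the sources used here. Raw counts per gene, whole numbers without normalization, were what the authors deposited. Within groups, the chi-square per degree of freedom between libraries was 5.07 to 19.4, so each was kept as a replicate.

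Counts were tested with edgeR 4.0.16 (R 4.3.3): filterByExpr by group, TMM scaling, a robust quasi-likelihood fit and Benjamini-Hochberg adjustment over all genes tested. The script was tested on simulated data. Standard errors came from the F statistic. Exons of GENCODE release 29 (pyranges 0.1.4) gave opposite-strand overlaps of at least 50 bases. Contained features had at least 90% of their exonic bases opposite a gene and 60 counts in all, with 0.5 added to each count in ratios. Alternatives were DESeq2 1.42.0, limma 3.58.1 (voom), other scalings, no filter, a replicate block, the own-strand ratio as a covariate and leaving out each library. Members and lists were chosen with earlier results of these data known. The named genes are all members, the most abundant list genes (up to 4), opposite features, the 3 ferritin pseudogenes with most counts and the 3 genes nearest in pattern to FTH1, BEST1 and FTL. Some list genes this rule takes, and the nearest genes of other members, are not described. A gene near FTH1 in pattern and a stretch of sequence are not reported here.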

Additional observations from a re-analysis of the deposited data

How the results depend on the processing

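The number of genes called was 0 with edgeR on all libraries (580 at an unadjusted p below 0.05), 3 with DESeq2, 1 with limma-voom, 3 with no filter on low counts, and 0 to 922 when each library was left out, the highest without control replicate 3. Members called ranged from 0 to 3 and summed loci called from 0 to 1 over the same fits, again highest without that library, and were 0 in all the others. The replicate numbers are not said to pair libraries, and same-numbered libraries did not deviate together (r = -0.25, 0.15 and -0.047). With the replicate block, 0 genes and 0 members were called and the FTH1 to BEST1 log2 ratio differed by 0.46 (exact sign-flip p = 0.25, the smallest that 3 pairs can give). Leaving out libraries gave 0.25 to 0.67 for that ratio, -0.16 to 0.20 for SRXN1 (-0.054 without control replicate 1), -0.012 to 0.36 for FTH1 and -0.23 to 0.27 for the SLC7A11 locus (-0.039 and -0.088 without overexpression-labelled replicates 1 and 2). That locus was at -0.0068 with DESeq2 and -0.0069 with its size factors in edgeR. GCLC and SLC7A11 turned to -0.10 and -0.054 once the own-strand ratio entered as covariate. The sign of every tested member was the same under the 3 other scalings (DESeq2, its size factors in edgeR and library totals). Library totals moved the median log2 fold change of all genes from 0.024 to 0.18, with BEST1 at -0.15 and FTH1 at 0.29. Counts of HMOX1 and SLC7A11 were too low to show moderate changes.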
